A study of Mus musculus with 2 samples.

Results

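The 10 genes described here set how glucose enters a brown adipocyte and how far it is taken through glycolysis: Slc2a1, Slc2a4, Hk1, Hk2, Pfkl, Pfkp, Pkm, Pdk4, Pdk2 and Gpd1. They were taken by symbol from the 32285 genes of the count matrices, and each symbol matched 1 gene. The symbols were set as a list, with earlier results of these data known. Their levels were read in WT and KO nuclei of each cell class.

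Single-nucleus RNA-seq (snRNA-seq) was carried out on interscapular brown adipose tissue (BAT) of 8-week-old mice, with 1 library per genotype. Both genotypes carried loxP-flanked alleles of Srsf1, which encodes a splicing factor (Srsf1 flox/flox). KO mice also carried Adipoq-Cre, in which the adiponectin promoter drives Cre recombinase in adipocytes, and WT mice were littermates with no Cre transgene, labelled wild type. The study's methods state that males were used, and the number of mice pooled in each library is not given in the sources used here. With 1 library per genotype no test was possible, so no p-value is given, and a difference between WT and KO cannot be told apart from a difference between the 2 libraries.

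Glucose crosses the cell membrane through facilitative transporters, of which GLUT1 serves basal uptake and GLUT4 moves to the surface in response to insulin. Hexokinase traps the sugar as glucose 6-phosphate, phosphofructokinase commits it to glycolysis, and pyruvate kinase makes pyruvate, whose entry into the citric acid cycle is held back by the pyruvate dehydrogenase kinases. BAT is known for high glucose uptake when it is active in the cold, and its adipocytes also draw on glycolysis for glycerol 3-phosphate, the backbone of stored triglyceride.

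The matrices held 93102814 unique molecular identifiers (UMIs, 1 per captured RNA molecule) in 12846 WT barcodes and 80090208 in 11495 KO barcodes, of which 12771 and 11378 nuclei were kept. A nucleus was given a class when the summed UMIs of that class's marker genes reached 5 and were at least 2 times the next largest sum. The adipocyte class, called from Plin1, Cidec, Adipoq, Acvr1c, Lipe and Plin4, held 4711 WT and 2351 KO nuclei, and all 6 markers were detected in both libraries. Adipose stem and progenitor cells (ASPCs) numbered 306 and 1714, endothelial nuclei 2516 and 1140, immune nuclei 554 and 3703, and mural nuclei 296 and 179. A further 4298 WT nuclei (33.7%) and 2263 KO nuclei (19.9%) took no class. The libraries stood apart in more than genotype: the median share of mitochondrial UMIs was 1.10% in WT and 0.0489% in KO, and most WT adipocyte nuclei lay in a different cluster (cluster 2, 3473 nuclei) from most KO adipocyte nuclei (cluster 4, 1928 nuclei). They shared 52 barcodes. Srsf1, the targeted gene, stood at 182 CPM (UMIs of the gene per 1000000 UMIs of the class) in WT and 61.0 CPM in KO adipocyte nuclei. Its log2 ratio, given throughout as KO over WT, was -1.58. In the 4 other classes it lay between -0.72 and -0.46.

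Coordinates below are those of GRCm38 (mm10). The hexokinase genes differed between WT and KO adipocyte nuclei in opposite directions, and Pdk4 differed in the same direction as Hk2. The stretch upstream of a start site is therefore shown for these 3. The sequences are from RefSeq (build GRCm38.p6), 5′ to 3′ on the gene's strand, and cover the first 200 bases of a 300-base window that begins 250 bases before the start site. Capitals mark matches on either strand to the 6 motifs searched: the E-box CACGTG, the nuclear receptor half-site AAGGTCA, the cAMP response element TGACGTCA, the GC box GGGCGG, the FOXO site TGTTTAC and the CCAAT box.
Hk1, chr10:62379959-62380158, minus strand: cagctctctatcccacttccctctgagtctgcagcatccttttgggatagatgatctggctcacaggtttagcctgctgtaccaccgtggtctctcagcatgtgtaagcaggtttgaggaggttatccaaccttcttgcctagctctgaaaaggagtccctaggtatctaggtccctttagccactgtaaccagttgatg
Hk2, chr6:82774505-82774704, minus strand: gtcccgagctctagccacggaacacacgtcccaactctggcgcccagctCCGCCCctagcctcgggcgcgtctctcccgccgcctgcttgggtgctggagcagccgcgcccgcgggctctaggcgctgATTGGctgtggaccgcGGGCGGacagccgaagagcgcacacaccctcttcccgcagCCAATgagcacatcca
Pdk4, chr6:5496329-5496528, minus strand: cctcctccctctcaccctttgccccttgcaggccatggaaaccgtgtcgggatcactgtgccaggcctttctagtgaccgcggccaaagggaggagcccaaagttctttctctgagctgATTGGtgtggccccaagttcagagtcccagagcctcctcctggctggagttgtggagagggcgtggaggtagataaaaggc
The Hk2 stretch held GC and CCAAT boxes, the Pdk4 stretch held 1 CCAAT box, and none of the 6 motifs matched in the Hk1 stretch. Hk1 had a second window at another start site, whose first 200 bases (chr10:62340472-62340671, not shown) also held none of the 6. Which start site of Hk1 these nuclei use was not tested. Over all 32851 promoter windows of 300 bases, 37.4% held a CCAAT box, 35.7% a GC box, 7.15% an E-box, 4.72% the half-site, 3.65% the FOXO site and 1.79% the cAMP response element, so the matches in Hk2 and Pdk4 are to the 2 commonest motifs. The table held windows for 8 of the 10 genes, without Slc2a4 and Gpd1. Of these 8 genes, Pdk2 alone had an E-box in its windows. A match is given as a description of the sequence only.

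In adipocyte nuclei, 7 of the 10 genes were lower in KO than in WT, against 44.6% of all genes with enough UMIs. Gpd1, Pkm, Hk2 and Slc2a4 were lower by 2-fold or more, of which the intervals of Pkm, Hk2 and Slc2a4 span the 2-fold line, Hk1 was 2.84-fold higher, and Slc2a1, Pfkl, Pfkp, Pdk4 and Pdk2 differed by less than 2-fold. The median log2 ratio of the 10 genes was -0.83. All 15567 genes with at least 50 UMIs over both libraries had a median of 0.13, and of them 16.7% were 2-fold or more lower in KO and 21.1% were 2-fold or more higher. With classes taken from clusters 1 gene, Gpd1, was 2-fold or more lower, and with Plin4 left out of the adipocyte markers 2 were, Gpd1 and Pkm. Intervals are exact 95% intervals of the UMI counts and cover counting error only.

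**Figure D1:**
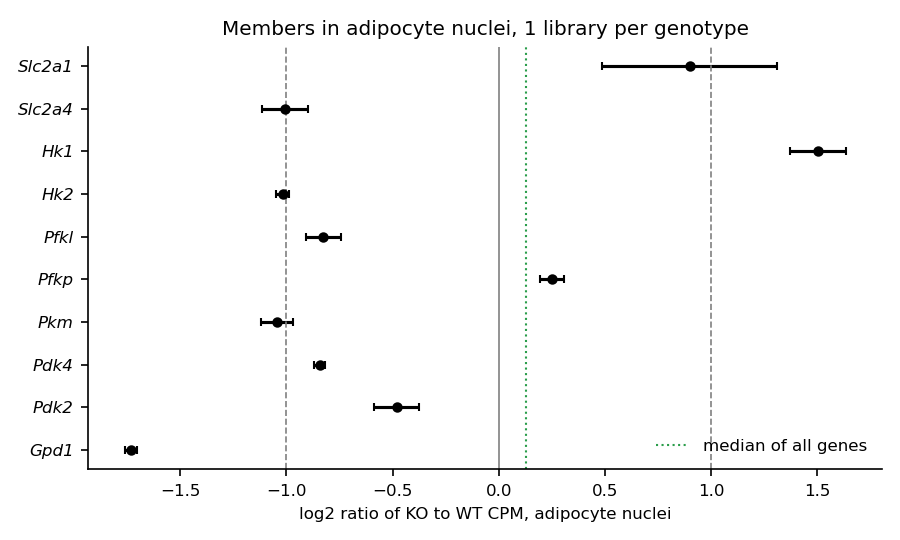
Log2 ratio of KO to WT CPM (x axis) of each of the 10 genes in adipocyte nuclei, 1 library per genotype; points are ratios, bars are 95% counting intervals, dashed lines mark 2-fold and the dotted line the median of all genes at 0.13. Gpd1 lies farthest to the left at -1.73 and Hk1 farthest to the right at 1.50, while Slc2a4, Hk2 and Pkm sit at the 2-fold line.

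Slc2a4 (chr11:69942539-69948188, minus strand) encodes GLUT4, the insulin-responsive transporter. In adipocyte nuclei it stood at 85.0 CPM (95% interval 82.3 to 87.7) in WT and 42.3 CPM (39.5 to 45.2) in KO, and a UMI of it was found in 46.6% and 26.5% of nuclei. The log2 ratio was -1.01 (-1.12 to -0.90), an interval that spans the 2-fold line. In WT the gene was highest in adipocyte nuclei, with mural nuclei next at 51.9 CPM and immune nuclei lowest at 22.4 CPM. In KO the mural level, 27.0 CPM, had an interval (15.7 to 43.2) that overlapped the adipocyte one, and ASPCs were lowest at 4.86 CPM.

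Slc2a1 (chr4:119108711-119137983, plus strand) encodes GLUT1, the transporter of basal uptake. It was scarce in adipocyte nuclei, at 2.49 CPM (2.05 to 2.99, 111 UMIs) in WT and 4.64 CPM (3.74 to 5.68, 93 UMIs) in KO, with a log2 ratio of 0.90 (0.49 to 1.31). In WT it was highest in endothelial nuclei, at 12.6 CPM, which was 509% of the adipocyte level, and adipocyte nuclei were the lowest of the 5 classes. The intervals of each neighbouring pair in that order overlapped, while those of endothelial and adipocyte nuclei did not. The endothelial level was 6.87 CPM in KO, where its interval (4.25 to 10.5) overlapped that of adipocyte nuclei. Transporter UMIs in adipocyte nuclei thus held more Slc2a1 in KO than in WT: its share of Slc2a1 and Slc2a4 together was 2.84% (2.34 to 3.41) in WT and 9.88% (8.05 to 12.0) in KO.

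Hk2 (chr6:82725025-82774454, minus strand) encodes hexokinase 2, the insulin-regulated hexokinase of muscle and fat. Its level in adipocyte nuclei was 1048 CPM (1038 to 1057) in WT and 518 CPM (508 to 528) in KO, a log2 ratio of -1.02 (-1.05 to -0.99). Nuclei with at least 1 UMI of Hk2 made up 94.5% of the adipocyte class in WT and 83.0% in KO. Adipocyte nuclei held the highest level in both libraries, 4.53 times that of endothelial nuclei in WT and 7.94 times that of immune nuclei in KO, the next highest classes.

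Hk1 (chr10:62268855-62379908, minus strand) encodes hexokinase 1, the form that most tissues use for basal glucose phosphorylation. Adipocyte nuclei of WT held 19.0 CPM (17.8 to 20.4, 850 UMIs) and those of KO 54.0 CPM (50.8 to 57.3, 1083 UMIs), a log2 ratio of 1.50 (1.37 to 1.64). The share of nuclei with a UMI was 12.1% in WT and 24.9% in KO, and in nuclei thinned to 1000 UMIs each it was 1.70% and 5.51%. In WT, adipocyte nuclei had the lowest Hk1 of the 5 classes and endothelial nuclei the highest, at 58.5 CPM (53.1 to 64.4). In KO the adipocyte level overlapped the endothelial level of 62.5 CPM (53.9 to 72.0) and the mural level of 49.2 CPM (33.4 to 69.8), so the gap between adipocyte and endothelial nuclei seen in WT was not seen in KO.

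Hk1 was the only one of the 10 genes that was 2-fold or more higher in KO adipocyte nuclei, and in the 4 other classes no difference was detectable at this depth. The log2 ratio was 0.33 (-0.08 to 0.76) in ASPCs, 0.09 (-0.16 to 0.34) for endothelial, -0.08 (-0.39 to 0.25) for immune and 0.66 (-0.10 to 1.41) for mural nuclei, all with intervals that include 0. Nuclei that took no class held 31.6 CPM in WT and 44.7 CPM in KO, a log2 ratio of 0.50 with an interval above 0. Within the hexokinase pair the Hk1 share of UMIs in adipocyte nuclei was 1.78% (1.67 to 1.91) in WT and 9.45% (8.92 to 10.0) in KO, and Hk2 still made up 90.6% in KO. These shares are of UMIs and are not corrected for gene length. The antisense gene Hk1os overlaps Hk1 on the opposite strand, and Gm17034 overlaps Hk2 in the same way.

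Pfkl (chr10:77986947-78010083, minus strand) and Pfkp (chr13:6579768-6648777, minus strand) encode the liver-type and platelet-type subunits of phosphofructokinase. Pfkl stood at 134 CPM (131 to 138) in WT and 75.8 CPM (72.0 to 79.7) in KO adipocyte nuclei, a log2 ratio of -0.83 (-0.91 to -0.74). Pfkp stood at 165 CPM (161 to 168) and 196 CPM (189 to 202), a log2 ratio of 0.25 (0.19 to 0.31), which is near the median of all genes. The Pfkp share of the pair's UMIs was therefore 55.1% (54.2 to 55.9) in WT and 72.1% (70.9 to 73.3) in KO.

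The subunits also differed in where they were found. Pfkl was highest in adipocyte nuclei of both libraries, by 2.84 times the next class in WT and 4.21 times in KO. Pfkp reached 181 CPM (157 to 209) in WT mural nuclei, which overlapped the adipocyte level, and was lowest in endothelial nuclei of both libraries, at 83.9 and 59.5 CPM. Pfkp was also the steadiest of the 10 genes between libraries, with log2 ratios from -0.50 in endothelial to 0.25 in adipocyte nuclei over the 5 classes. Pitrm1 overlaps Pfkp on the opposite strand.

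Pkm (chr9:59656368-59679375, plus strand) encodes the pyruvate kinase of muscle and most other tissues. Adipocyte nuclei held 185 CPM (181 to 189) in WT and 89.9 CPM (85.8 to 94.2) in KO, a log2 ratio of -1.04 (-1.12 to -0.97). It was less restricted to adipocytes than Hk2 or Pfkl: immune nuclei, next in order, reached 67.7% of the adipocyte level in WT and 73.2% in KO. The counts do not separate its 2 splice forms.

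**Figure D2:**
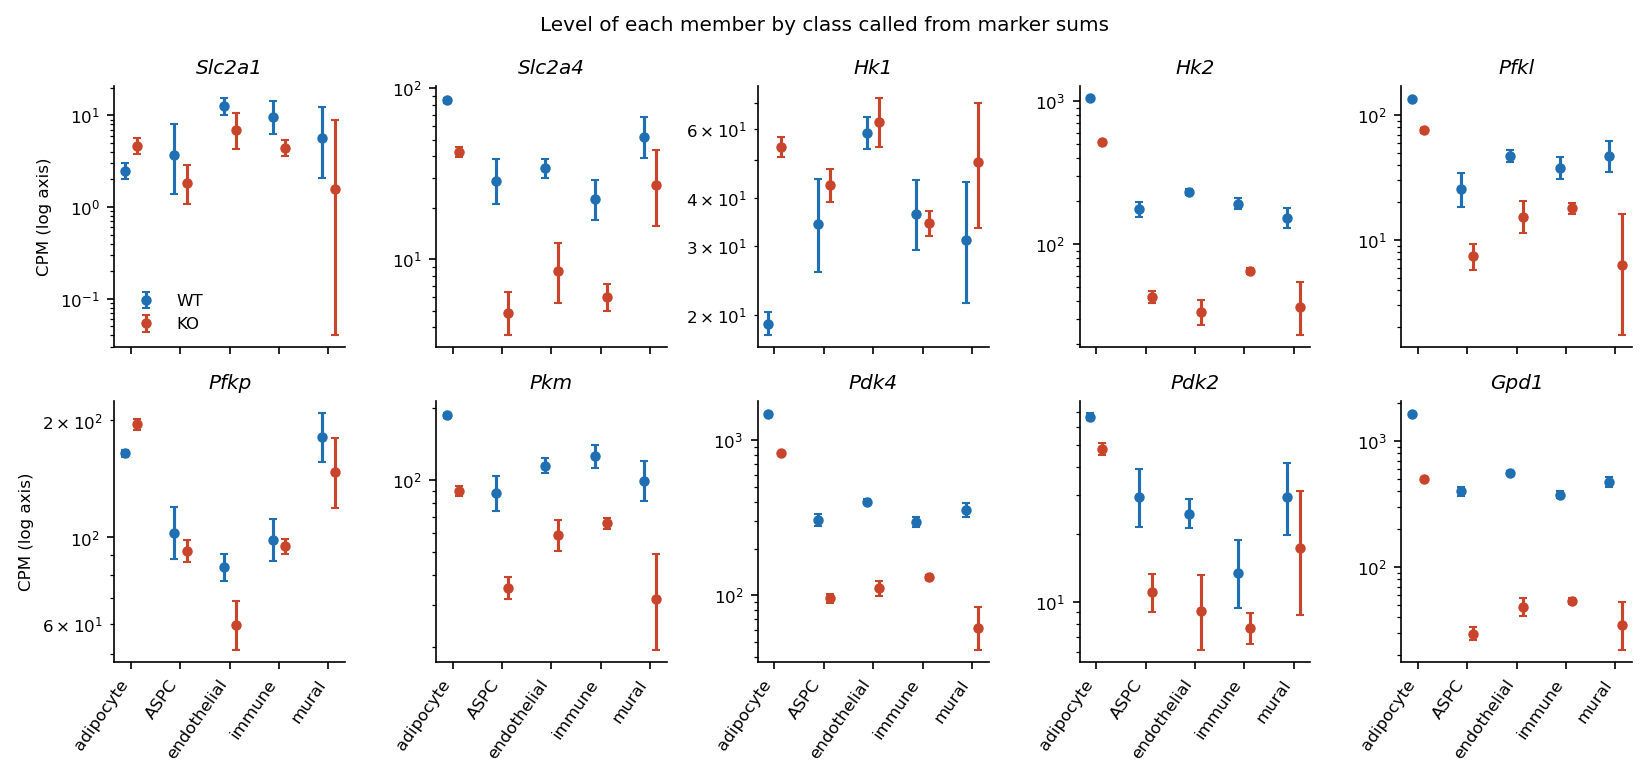
Level of each gene in CPM (y axis, log scale, own range per panel) in the 5 classes of nuclei named on the x axis of the WT and KO libraries; points are levels and bars 95% Poisson intervals. In adipocyte nuclei Hk1 goes from 19.0 to 54.0 CPM while Gpd1 goes from 1652 to 497 CPM, and outside adipocyte nuclei Hk2, Pdk4 and Gpd1 are lower in KO in each of the 4 classes.

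Pdk4 (chr6:5483351-5496309, minus strand) encodes a pyruvate dehydrogenase kinase that is induced by fasting and fatty acids and holds pyruvate back from oxidation. Its adipocyte level was 1487 CPM (1476 to 1499) in WT and 829 CPM (816 to 841) in KO, a log2 ratio of -0.84 (-0.87 to -0.82). Nuclei with a Pdk4 UMI made up 96.6% in WT and 72.7% in KO, and 72.8% and 43.7% after thinning to 1000 UMIs.

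Pdk2 (chr11:95026258-95041354, minus strand) encodes a more broadly expressed kinase of the same enzyme. It stood at 66.9 CPM (64.5 to 69.3) in WT and 47.9 CPM (44.9 to 51.0) in KO adipocyte nuclei, a log2 ratio of -0.48 (-0.59 to -0.38). Pdk4 made up 95.7% of the pair's UMIs in WT and 94.5% in KO, so this pair kept its shares more closely than the hexokinase or phosphofructokinase pair did. Adipocyte nuclei held the highest Pdk2 level in both libraries, 2.28 and 2.74 times the next class. Gm11513 overlaps Pdk2 on the opposite strand.

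Gpd1 (chr15:99717515-99725005, plus strand) encodes the cytosolic glycerol 3-phosphate dehydrogenase, which turns a glycolytic intermediate into the backbone of triglyceride and feeds the glycerophosphate shuttle. It differed most among the 10 genes, from 1652 CPM (1640 to 1664) in WT to 497 CPM (488 to 507) in KO adipocyte nuclei, 3.32-fold lower with a log2 ratio of -1.73 (-1.76 to -1.70). Of the 15567 genes, 8.94% had a smaller ratio. Gpd1 was detected in 98.6% of WT nuclei of this class and in 75.0% of KO ones, and after thinning to 1000 UMIs in 78.9% and 35.8%. Ucp1, the thermogenic uncoupling protein of brown fat, had a log2 ratio of -4.89 in the same nuclei.

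**Figure D3:**
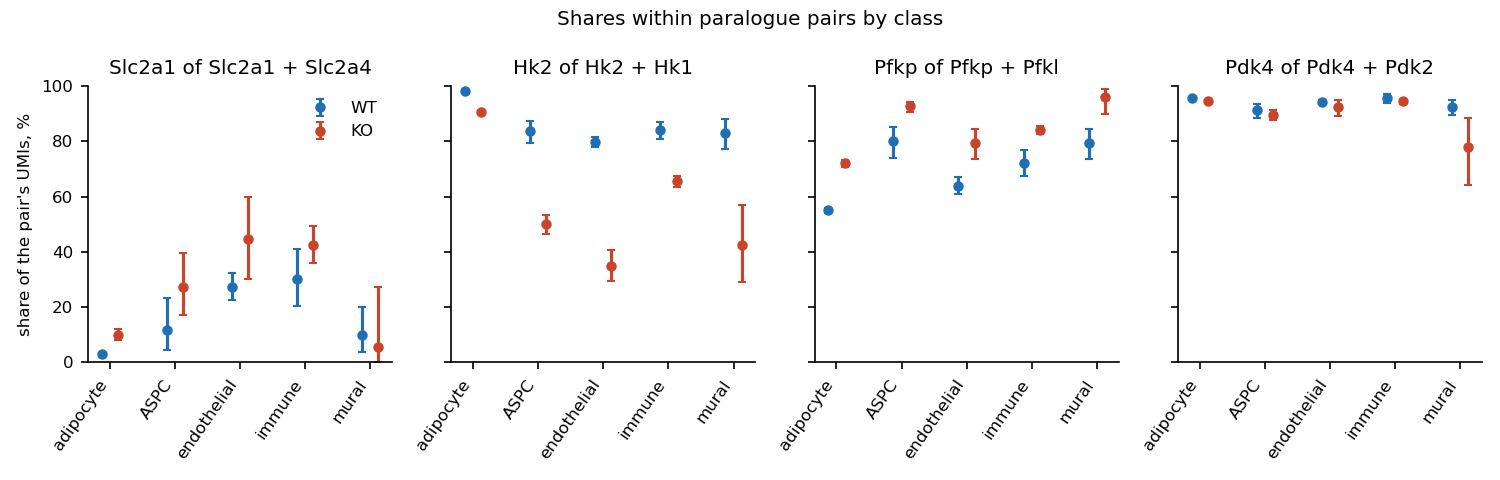
Share of the first gene in the UMIs of a pair (y axis, percent) by class (x axis) in WT and KO; bars are 95% exact binomial intervals. In adipocyte nuclei the Slc2a1, Hk1 and Pfkp shares are larger in KO (the Hk2 share goes from 98.2 to 90.6%), and the Pdk4 share is 95.7% and 94.5%.

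Markers of other cell types also differed between the libraries within the adipocyte class. The 9 immune markers, all detected in both, summed to 117 CPM in WT and 418 CPM in KO adipocyte nuclei, the 8 ASPC markers to 148 and 289 CPM, and the 8 endothelial markers to 324 and 99.4 CPM. The 6 adipocyte markers summed to 3498 and 5409 CPM, and without Plin4 the other 5 summed to 3151 and 2871 CPM. The median depth was 7115 and 6554 UMIs per nucleus. The part of these differences in the ratios above was not tested.

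Outside adipocytes, 8 of 9 genes with enough UMIs were lower in KO in ASPCs, 9 of 10 in endothelial, 10 of 10 in immune and 7 of 8 in mural nuclei. Of all genes with enough UMIs, 52.1%, 52.2%, 52.5% and 46.4% were lower in these classes. In WT, Gpd1 in the other 4 classes stood at 22.7 to 34.0% of its adipocyte level, Pdk4 at 19.9 to 27.1%, Hk2 at 14.6 to 22.1%, Pfkl at 19.0 to 35.2% and Slc2a4 at 26.4 to 61.1%. Ucp1 and Plin1, genes of adipocytes, stood at 24.8 to 42.8% and 15.96 to 23.1% in those same classes. Droplets take up free RNA, and adipocyte genes at such levels in endothelial or immune nuclei are not read here as expression by those cells. In endothelial nuclei, with a median depth of 2260 UMIs in WT and 2161 in KO, a UMI of Gpd1 was seen in 67.6% and 10.5%, of Pdk4 in 53.4% and 16.7%, of Hk2 in 32.2% and 7.02% and of Slc2a4 in 8.70% and 2.11%. For Hk1 the endothelial shares were 14.2% and 12.9%, close to each other, while its adipocyte share was 12.1% in WT and 24.9% in KO.

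Levels were also set against Ucp1 of the same nuclei, as a description. Per 100 UMIs of Ucp1, WT held 94.7 of Gpd1 in adipocyte nuclei and 75.1 to 92.2 in the other 4 classes, and KO held 844 and 285 to 458. For Pdk4 the WT values were 85.2 and 53.9 to 70.5, for Hk2 60.0 and 26.2 to 41.9, and for Pfkl 7.69 and 5.90 to 8.26. Those of Slc2a4 were 4.87 and 4.54 to 8.89. Other genes were higher per Ucp1 in each WT class outside adipocytes: Hk1 with 1.09 in adipocyte nuclei and 5.33 to 7.92 elsewhere, Slc2a1 with 0.142 and 0.863 to 2.11, and Pfkp with 9.43 and 11.2 to 31.0. Pkm did the same with 10.6 and 15.3 to 27.4.

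ASPCs had enough UMIs for 9 of the 10 genes, and 7 of the 9 were 2-fold or more lower in KO, against 10.7% of 11389 genes. In endothelial nuclei it was 6 of 10, against 13.4% of 11305 genes, in immune nuclei 6 of 10, against 11.6% of 13012, and in mural nuclei 5 of 8, against 10.5% of 5408. None was 2-fold or more higher in any of these classes, where 5.09%, 3.47%, 6.14% and 3.75% of genes were. Gpd1 led in each: it went from 399.6 to 29.7 CPM in ASPCs, in endothelial nuclei from 561 to 48.4 CPM, in immune nuclei from 375 to 54.2 CPM and in mural nuclei from 476 to 34.9 CPM. These counts and levels are for classes by marker sums. With classes taken from clusters, only Gpd1 of the genes counted lower in endothelial nuclei stayed 2-fold or more lower. In ASPCs only Gpd1 and Slc2a4 (log2 ratio -1.18) did, and in immune nuclei only Gpd1 and Slc2a1. In mural nuclei all but Pkm (-0.83) did.

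By marker sums, Pdk4 and Hk2 were 2-fold or more lower in KO in each of the 4 classes as well. Pdk4 had log2 ratios of -1.67, -1.86, -1.18 and -2.52 in ASPC, endothelial, immune and mural nuclei in turn, and Hk2 had -2.03, -2.79, -1.56 and -2.07. Of the 6 adipocyte markers, 5 were lower in KO in each of these classes: Plin1 had log2 ratios of -1.52, -1.55, -0.90 and -1.70 there and 0.15 in adipocyte nuclei. Plin4, the sixth, was higher, with 0.61, 0.98, 1.64 and 0.17 in these classes and 2.87 in adipocyte nuclei. The 6 markers together summed to between 547 and 919 CPM in the 4 classes of WT and between 285 and 461 CPM in those of KO, and the part of these values in the members' ratios was not tested.

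These ratios outside adipocytes depended on how nuclei were classed. In classes taken from clusters, each nucleus took the class of most called nuclei of its cluster, so such classes also hold unassigned nuclei and nuclei of other classes. Cluster 8, classed as immune, held 194 KO adipocyte nuclei, and 52.6% of its nuclei took no class by marker sums. In cluster 1, classed as adipocyte, 78.2% took none. With classes taken from clusters in place of marker sums, the log2 ratio of Pdk4 was -0.09, -0.27, -0.12 and -1.40 in the same 4 classes in turn, and that of Hk2 -0.29, -0.45, -0.45 and -1.53. Gpd1 remained over 2-fold lower in all 4, at -1.54, -1.88, -1.47 and -2.46, against -3.75, -3.54, -2.79 and -3.77 by marker sums. With Plin4 left out of the adipocyte markers the immune ratio of Pdk4 was -0.75. Of the clusters in which most called nuclei were endothelial, clusters 5 and 9 were split by library. Counting nuclei of any class, cluster 5 held 1843 WT and 25 KO nuclei, and cluster 9 held 8 and 1203.

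Slc2a1 differed in direction between classes. It was higher in KO adipocyte nuclei and lower in KO endothelial (12.6 to 6.87 CPM, log2 ratio -0.88, -1.64 to -0.18) and immune nuclei (9.66 to 4.42 CPM, log2 ratio -1.13, -1.78 to -0.43). In ASPC and mural nuclei it had 24 and 7 UMIs over both libraries, too few for a ratio. Slc2a4 kept 1 direction: 33.9 to 8.50 CPM in endothelial, 28.7 to 4.86 CPM in ASPC and 22.4 to 5.99 CPM in immune nuclei. With classes taken from clusters its log2 ratio was -0.83, -1.18 and -0.69 in these classes in turn. As said above, its levels in endothelial or immune nuclei are not read as expression by those cells. In mural nuclei Slc2a4 went from 51.9 to 27.0 CPM, less than 2-fold.

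Adipocyte nuclei of WT were not uniform. Clusters were made without the 10 genes, the pathway genes or the brown and white state markers among the variable genes. Cluster 15, with 242 WT adipocyte nuclei and no KO nucleus, held more of the white-fat genes Lep (99.2 CPM against 6.91 in cluster 2), Slc7a10 (509 against 9.79) and Nnat (1477 against 37.9), and less Ucp1 (647 against 1968) and Ppargc1a (1886 against 5783). It also held less of 9 of the 10 genes, a count without a matching share over all genes, which was not computed. Its log2 ratio to cluster 2 was -1.36 (-1.43 to -1.29) for Pdk4, -1.18 for Pfkl, -1.18 for Pkm, -1.06 for Pfkp, -1.01 for Gpd1 and -0.91 for Hk2. Slc2a1, with 11 UMIs in cluster 15, had a ratio of 1.40 (0.31 to 2.37).

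Cluster 15 and the KO nuclei of cluster 4 were alike in some of the genes and not in others, as ratios to WT cluster 2 show. Pkm was at 89.6 CPM in cluster 15 and 92.9 CPM in cluster 4 against 203 CPM in cluster 2, and Hk2 was at 621, 548 and 1163 CPM. Hk1 went opposite ways, at 7.88 CPM (19 UMIs) in cluster 15 and 54.8 CPM in cluster 4 against 18.7 CPM in cluster 2. Pfkp was likewise lower in cluster 15, at 85.9 CPM, and not in cluster 4, at 205 CPM against 180 CPM. These are nuclei of 1 library each, and genes of the nuclei clustered are given as a description.

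**Figure D4:**
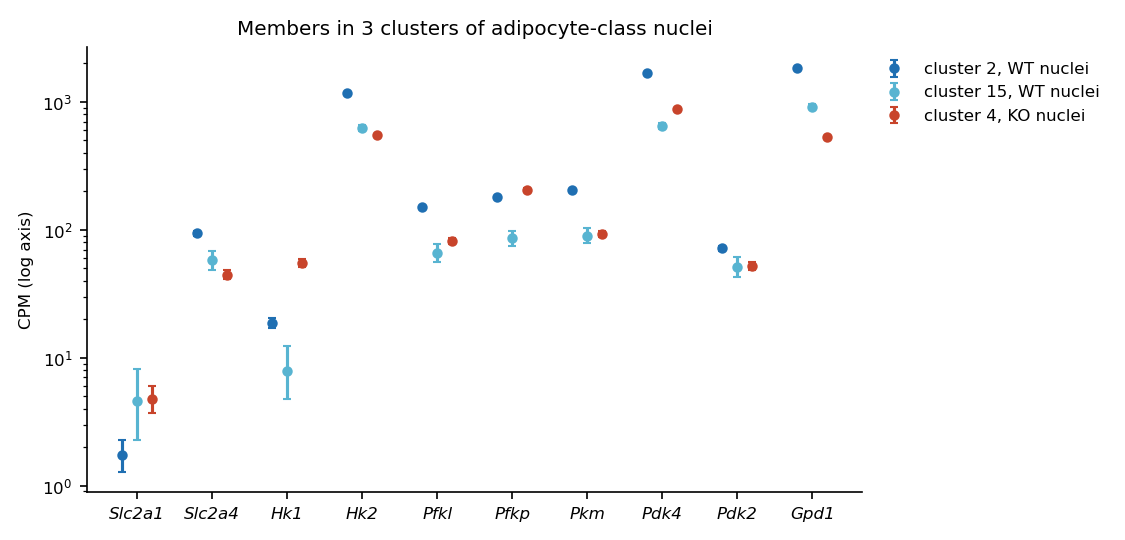
Level in CPM (y axis, log scale) of the 10 genes (x axis) in adipocyte-class nuclei of WT cluster 2, WT cluster 15 and KO cluster 4; bars are 95% Poisson intervals. Pkm and Pdk2 have overlapping intervals in clusters 15 and 4, both below cluster 2, and Hk1 is below cluster 2 in cluster 15 and above it in cluster 4.

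KO adipocyte nuclei were mixed too. The 117 of cluster 10, with a median of 2027 UMIs against 6202 in cluster 4, held 1239 CPM of Pdk4 against 873 in cluster 4, but 253 CPM of Gpd1 against 527 and 61.8 CPM of Pfkp against 205. Hk1 was at 53.9 CPM (35.5 to 78.4, 27 UMIs) in cluster 10 and 54.8 CPM in cluster 4, so its high level was seen in both. Of all nuclei of cluster 10, 69.4% took no class. A further 194 KO adipocyte nuclei lay in cluster 8, where 57.5% of called nuclei were immune and 52.6% of all nuclei took no class. The KO nuclei of cluster 8 had a median of 12350 UMIs, and whether they were doublets was not tested.

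The other genes of glucose use were read from a list of 67. In adipocyte nuclei 64 of them had at least 50 UMIs, of which 15 were 2-fold or more lower in KO, 8 were 2-fold or more higher and 41 were neither, with a median log2 ratio of -0.30. The shares over all genes were 16.7% lower and 21.1% higher, as given above, so the counts of several groups below lie near them. Glycolytic enzymes were the group with the most genes lower: 7 of 13 were 2-fold or more lower and 2 higher, with a median of -1.01. This was not particular to adipocyte nuclei. By marker sums, 8 of 11 were 2-fold or more lower in ASPC, 6 of 10 in endothelial, 5 of 12 in immune and 5 of 6 in mural nuclei. Of the whole list, 22 of 56, 26 of 57, 17 of 59 and 22 of 34 genes were lower in these classes in turn. The shares over all genes there were 10.7%, 13.4%, 11.6% and 10.5%. Pentose phosphate enzymes had 0 of 7 lower and 1 higher, transporters and their regulators 1 of 11 each way, and enzymes of pyruvate entry into mitochondria 2 of 12 each way.

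Gapdh, the glycolytic glyceraldehyde 3-phosphate dehydrogenase, went from 70.0 to 19.5 CPM (log2 ratio -1.84). Ldhb, a lactate dehydrogenase subunit, went from 143 to 35.7 CPM (-2.00). Beside Gpd1, 1 of 4 other genes of glycerol 3-phosphate was 2-fold or more lower: Gk, the kinase that makes it from glycerol, at 3706 CPM in WT and 844 CPM in KO (-2.13).

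Of the 9 regulators of glycolytic flux, 2 were 2-fold or more lower in KO and 1 higher. Pfkfb3, whose product makes the activator fructose 2,6-bisphosphate, went from 1826 to 309 CPM (log2 ratio -2.56), and its paralogue Pfkfb4 from 9.43 to 62.6 CPM (2.73). Fbp2, a muscle fructose bisphosphatase that runs the step in reverse, had 208 UMIs in WT and 5 in KO (-4.22, -5.86 to -2.98).

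Most genes with the largest ratios had few UMIs in WT. Glycogen genes had 2 of 8 lower and 1 higher. Pygm, the muscle glycogen phosphorylase, had 65 UMIs in WT and 407 in KO (1.46 and 20.3 CPM, log2 ratio 3.80). Hk3, a further hexokinase, had 50 and 86 UMIs (1.94). Hk3 is known from myeloid cells, and the immune marker sums of these nuclei are given above. Pdk3, another pyruvate dehydrogenase kinase, had 57 and 63 UMIs (1.30), a direction not shared by Pdk4 or Pdk2.

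**Figure D5:**
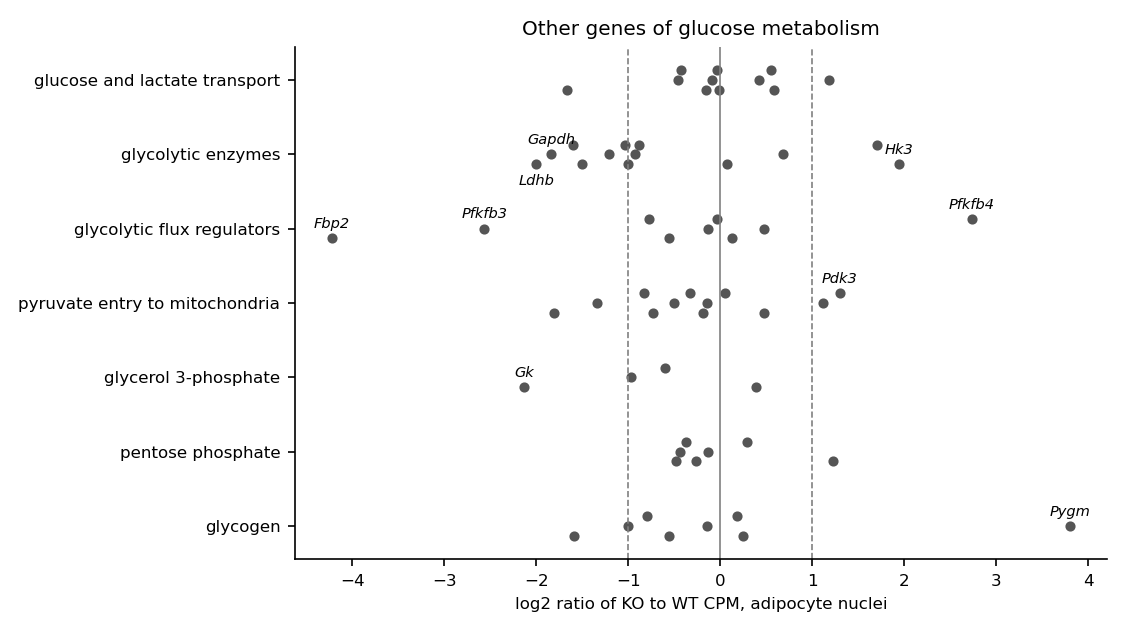
Log2 ratio of KO to WT CPM (x axis) in adipocyte nuclei of the 64 other genes of glucose metabolism with at least 50 UMIs, by group (y axis; vertical offsets only separate points); dashed lines mark 2-fold and genes with the lowest and highest ratios that the text describes are named. Of the 13 glycolytic enzymes 9 lie left of 0, from Ldhb at -2.00, while the pentose phosphate genes lie between -0.48 and 1.22.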

How the data were processed

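The authors aligned the reads to GRCm38 (mm10) and deposited 1 matrix of raw, not normalized UMI counts per library. The submitters' processing notes name Cell Ranger 5.0.0 and Seurat 3.1.1, while the study's methods give an earlier Cell Ranger version. Whether intronic reads or strand were used in counting is not given in the sources used here.

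Nuclei were dropped for under 200 genes, for over 10% mitochondrial UMIs, or where log UMIs or log genes lay more than 3 scaled median absolute deviations (MAD) from the median of their library. Nuclei were classed by marker sums (at least 5 UMIs and 2 times the next class). No doublet caller was run. Nuclei whose largest marker sum was under 2 times the next were left unassigned, so a called nucleus can still hold markers of another class. A sum within 1 UMI of the minimum or under 3 times the next class was found for 603 WT and 235 KO adipocyte nuclei. UMIs were summed per library and class and scaled to CPM. Ratios needed 50 UMIs over both libraries and carry exact conditional binomial 95% intervals, levels exact Poisson intervals and shares exact Clopper-Pearson intervals. All cover counting error only. For shares of nuclei, 58 WT and 26 KO adipocyte nuclei were too shallow to thin to 1000 UMIs. Clusters were made by Leiden clustering (2000 variable genes, 30 components, 15 neighbours, resolution 0.5). Scripts used scipy 1.17.1, numpy 2.4.6, igraph 0.11.9, scikit-learn 1.9.0, matplotlib 3.10.9 and pandas 2.3.3 under Python 3.11.15, and the ratio script was tested on simulated data. Gene places and overlaps came from the GENCODE annotation of GRCm38. The pathway list had 1 symbol with several gene IDs (Aldoa), which were summed.

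The members, the pathway list and the marker lists were chosen with earlier results of these data known. Genes named are the 10 members, the 5 largest and 5 smallest ratios of the pathway list (1 of which is not reported here), genes alike to 5 members, and Srsf1, Ucp1 and markers as checks. Alternatives changed the class rule, the filter, the scaling, thinning, the minimum of UMIs and the subtraction of the endothelial level. Leaving out shared barcodes, leaving Plin4 out of the adipocyte markers and keeping to clusters with under 20% unassigned nuclei were added after the data had been seen. Bulk RNA-seq and other assays of the study were not analysed here.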

Additional observations from a re-analysis of the deposited data

Results flagged for a closer look

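Slc2a1 had opposite directions in different classes of the same 2 libraries. The log2 ratio (KO over WT) stood at 0.90 in adipocyte nuclei and -0.88 in endothelial nuclei, a gap of 1.78, and -1.13 in immune nuclei, a gap of 2.03. Pfkp did so on a smaller scale, with 0.25 in adipocyte and -0.50 in endothelial nuclei, a gap of 0.75. The counting intervals of the ratios lie on opposite sides of 0 in each case, and with 1 library per genotype the differences between classes were not tested. With classes taken from clusters the Pfkp ratio in endothelial nuclei was 0.13.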

How the results depend on the processing

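No member's ratio in adipocyte nuclei changed sign under any alternative that gave it a value, and 50 of 128 such values left their counting interval. Classing by clusters moved the median ratio of the 10 genes from -0.83 to -0.67, leaving out the 10% of nuclei with the most UMIs to -0.76, leaving Plin4 out of the markers (1944 in place of 2351 KO adipocyte nuclei) to -0.77, the mean over nuclei to -0.66, thinning to 1000 UMIs to -0.59, centring on the median of all genes (a shift of 0.13) to -0.96 and subtracting the endothelial level to -0.60. The count of 4 genes 2-fold or more lower was 1 with cluster classes and with thinning, and 2 with no filter on nuclei, without the deepest 10%, without Plin4, with the mean over nuclei and with the endothelial level subtracted. Gpd1 stayed 2-fold lower in each, between -1.86 and -1.28. Slc2a4 (-1.14 to -0.60), Hk2 (-1.15 to -0.75) and Pkm (-1.19 to -0.87) crossed the 2-fold line under 8, 6 and 3 alternatives. The count higher was 2 in place of 1 with a marker sum of 10 UMIs and 3 times the next class, without the deepest 10%, in clusters with under 20% unassigned nuclei and with thinning, where Slc2a1 joined Hk1, and 0 with the endothelial level subtracted, since neither gene then had a value. The 8 pathway genes higher were 5 with a minimum of 200 UMIs per gene. Leaving out the 52 shared barcodes kept the median at -0.83. No paired analysis was possible because each genotype has 1 library. Slc2a1, with 111 and 93 UMIs in adipocyte nuclei and 8 and 12 nuclei with a UMI after thinning, is limited by depth.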

Other observations

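Over the 10 levels of 5 classes in 2 libraries, the pattern of Gpd1 was most like that of Slc36a2 (Pearson r = 0.995), Mdh1 (0.995) and Ces1d (0.993) among 11898 genes with at least 500 UMIs. Pdk4 was most like Rgs7 (0.995), Cpt1b (0.994) and Nrg4 (0.990), and Hk2 most like Ctcflos (0.992), Pcyt2 (0.991) and Rgs7 (0.991). Slc2a4 came nearest to Slc25a35 (0.969), Zfp598 (0.968) and Parm1 (0.963), and Slc2a1 to Olfr56 (0.936), Rab8a (0.936) and Sbds (0.925). The minimum of 500 UMIs was set for the genes compared. Slc2a1 had only 24 UMIs in ASPC and 7 in mural nuclei over both libraries, so its correlations are limited by depth. The 10 points share 2 libraries and their free RNA, and the correlations are a description.

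The few nuclei classed as skeletal muscle, 37 in WT and 17 in KO, kept Pdk4 at 861 and 737 CPM and Hk2 at 608 and 459 CPM. Gpd1 stood at 1036 and 41.7 CPM there (201 and 3 UMIs). The part of free RNA in these levels was not tested, and they are not read as expression by muscle nuclei. Nuclei that took no class held 1231 CPM of Gpd1 in WT and 231 CPM in KO, and 31.6 and 44.7 CPM of Hk1.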
